A study of Mus musculus with 12 samples.

Results

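Mouse spleen makes red blood cells as well as holding lymphocytes, and RNA of the red-cell lineage can be read in B lymphocytes isolated from it. Described here are 9 erythroid genes chosen by symbol: the alpha globins Hba-a1 and Hba-a2, Alas2, Ahsp, Slc4a1, Ermap, Gata1, Klf1 and Epor. Of these, 8 have a row among the 24982 gene symbols of the files, and Ahsp, the chaperone of free alpha globin, was not analysed here. The libraries were made from polyadenylated RNA of B lymphocytes from spleens of mice 6 weeks of age, with 4 biological replicates in each of 3 genotypes. WT mice are C57BL/J6, a laboratory strain, and carry neither alteration. Eμ-Myc mice carry a Myc transgene, known as a model of B-cell lymphoma in which the immunoglobulin heavy chain enhancer drives Myc in the B lineage. Eμ-Myc; PRPS2 KO mice, called PRPS2 KO below, carry that transgene and lack PRPS2, an enzyme that makes phosphoribosyl pyrophosphate for nucleotide synthesis. The study set Eμ-Myc against WT to catalogue gene expression altered by Myc, and PRPS2 KO against Eμ-Myc to see how loss of PRPS2 bears on it. How B lymphocytes were isolated, and whether red cells were lysed, is not given in the sources used here.

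Red cells arise from progenitors that depend on erythropoietin, which signals through the receptor encoded by Epor. GATA1 and KLF1 are the transcription factors that switch on globin, haem and membrane genes as these cells mature. Alas2 encodes the erythroid enzyme that starts haem synthesis, Slc4a1 encodes the anion exchanger band 3 of the red-cell membrane, and Ermap encodes an immunoglobulin superfamily protein of the erythroid membrane. Mouse spleen, unlike that of adult humans at rest, keeps making red cells, and its red pulp holds erythroblasts, reticulocytes and the macrophages that tend them. In bulk RNA, fewer cells of a type and less RNA per cell cannot be told apart, so every level below is a level per library.

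Promoters of 7 of the 9 genes were found in the RefSeq table for GRCm38.p6, with none for Slc4a1 or Ahsp. The 250 bases before RefSeq's start are printed for 4 genes: an alpha globin and Alas2, which varied together across libraries, and Klf1 and Epor, which varied differently from them. Capitals mark GATAA, the core read by GATA factors, on either strand (TTATC on the other strand), and CCNCNCCCN, the CACC-box letters read by KLF1, on either strand. The Hba-a2 window is chr11:32296242-32296491 on the plus strand, that of Alas2 chrX:150547167-150547416 on the plus strand, that of Klf1 chr8:84901732-84901981 on the plus strand, and that of Epor chr9:21963577-21963826 on the minus strand.
Hba-a2: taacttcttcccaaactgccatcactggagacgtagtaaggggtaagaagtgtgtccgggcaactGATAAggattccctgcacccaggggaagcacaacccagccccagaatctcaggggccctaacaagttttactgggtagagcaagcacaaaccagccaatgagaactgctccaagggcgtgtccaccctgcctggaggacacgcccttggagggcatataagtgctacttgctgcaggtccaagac
Alas2: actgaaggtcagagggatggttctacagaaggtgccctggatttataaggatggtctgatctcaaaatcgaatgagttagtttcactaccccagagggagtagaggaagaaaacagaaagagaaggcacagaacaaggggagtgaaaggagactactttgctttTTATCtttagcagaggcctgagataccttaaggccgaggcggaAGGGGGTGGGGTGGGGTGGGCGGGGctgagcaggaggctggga
Klf1: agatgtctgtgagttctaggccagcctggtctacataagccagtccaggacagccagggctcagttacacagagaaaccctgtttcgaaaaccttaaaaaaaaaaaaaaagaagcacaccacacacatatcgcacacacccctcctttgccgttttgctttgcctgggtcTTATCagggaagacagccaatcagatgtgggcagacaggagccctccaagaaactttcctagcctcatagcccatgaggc
Epor: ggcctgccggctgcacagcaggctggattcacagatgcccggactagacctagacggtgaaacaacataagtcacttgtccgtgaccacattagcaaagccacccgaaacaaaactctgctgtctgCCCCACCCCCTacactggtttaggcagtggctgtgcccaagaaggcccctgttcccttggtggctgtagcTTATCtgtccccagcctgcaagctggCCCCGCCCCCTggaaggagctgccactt

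GATAA was present in 6 of the 7 windows, and in 22.6% of all 32851 RefSeq promoters in the same 250 bases. It lay 185 bases before the start in Hba-a2, 182 in Hba-a1, 86 in Alas2, 80 in Klf1, 67 in Ermap and 54 in Epor. No GATAA lies in the Gata1 window, chrX:7967911-7968160 on the minus strand, which holds 3 matches to CCNCNCCCN. The CACC-box letters were also found in Alas2 and Epor, with 4 partly overlapping matches each, and in 45.8% of all promoters. The 2 motifs share no bases in these windows, and a match describes letters only. Windows of Hba-a1 and Hba-a2 share a run of 247 bases.

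The labels were first checked against Prps2 and Myc. Scaled coverage of Prps2 ran from 104 to 142 in WT, from 201 to 281 in Eμ-Myc and from 15.4 to 18.8 in PRPS2 KO. Myc ran from 238 to 352 in WT, from 1582 to 2234 in Eμ-Myc and from 1131 to 3121 in PRPS2 KO. Scaled coverage here is the authors' coverage value of a gene divided by 1 factor per library, and the summed coverage of a library ran from 1277305.5 to 1885768.9. How many reads stand behind a value is unknown, so precision rests on the spread between libraries. B-cell markers were high throughout: the summed scaled coverage of the 8 on the list ran from 6661 to 12863 in WT, from 7573 to 9685 in Eμ-Myc and from 6865 to 7748 in PRPS2 KO. Libraries 3 and 4 of PRPS2 KO stood apart from libraries 1 and 2: their T-cell marker sums were 12.9 and 11.7, against 530 and 560. In WT, libraries 1 and 4 had lower B-cell marker sums, 7185 and 6661, than libraries 2 and 3, 12863 and 11403.

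For each of the 8 erythroid genes, the highest and lowest library of at least 1 genotype lay further apart in fold than any pair of genotype means, and none of the 8 passed the test in any of the 3 comparisons, fitted without library weights. Alpha globins and Alas2 had their highest values in 1 WT library and 2 Eμ-Myc libraries and were low in all 4 PRPS2 KO libraries. The other 5, Slc4a1, Ermap, Gata1, Klf1 and Epor, had higher means in both transgenic groups than in WT, with overlapping libraries. Epor, the receptor, differed by at most 1.82-fold between libraries of a genotype, and its 3 means ran from 4.88 to 6.69.

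Alpha globin is the oxygen carrier's alpha chain, encoded by 2 near-identical genes on chromosome 11. GENCODE places Hba-a1 at chr11:32283511-32284465 and Hba-a2 at chr11:32296489-32297298, both on the plus strand of GRCm38, with starts 12978 bases apart. Their coding sequences are 429 bases each and differ at 1 position, with a shared run of 380 bases. The ratio of Hba-a1 to Hba-a2 coverage rounded to 1.01 in all 12 libraries, so the files give 1 measurement of alpha globin rather than 2, and how reads common to the copies were assigned is not given in the sources used here.

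Scaled coverage of Hba-a1 was 24.1, 17.9, 13.9 and 135 in WT libraries 1 to 4. In Eμ-Myc it was 19.9, 13.2, 70.1 and 35.6. In PRPS2 KO it was 15.8, 12.1, 14.5 and 16.9. WT library 4 was the highest of all 12, Eμ-Myc libraries 3 and 4 came next, and the PRPS2 KO libraries lay close together at the low end, with library 2 the lowest of all 12 and the other 3 within the range of both other groups. The highest library exceeded the lowest 9.75-fold in WT and 5.31-fold in Eμ-Myc, against 1.39-fold in PRPS2 KO. Ordered by mean, WT stood at 47.8 ± 58.5 (SD, n = 4), Eμ-Myc at 34.7 ± 25.4 (SD, n = 4) and PRPS2 KO at 14.8 ± 2.04 (SD, n = 4). No neighbours in that order differed beyond their spread. The log2 fold change, on the log2(scaled coverage + 0.5) scale of all fold changes here, was -0.08 ± 0.74 (SE) in Eμ-Myc against WT (limma adjusted p = 0.936). It was -0.93 ± 0.46 in PRPS2 KO against Eμ-Myc (limma adjusted p = 1, unadjusted p = 0.0771) and -1.01 ± 0.65 in PRPS2 KO against WT (limma adjusted p = 0.221). The difference between Eμ-Myc and WT was 0.64 without WT library 4, 0.28 without Eμ-Myc library 2 and 0.09 without Eμ-Myc library 1, so its sign was not stable. Single libraries also moved the other 2 fold changes: with Eμ-Myc library 3 left out, the -0.93 became -0.51, and with WT library 4 left out, the -1.01 became -0.29. Limma's library quality weights give libraries that stand apart less weight. With them the -0.93 became -1.5 and was called (limma adjusted p = 0.00652), and the -1.01 became -0.33 (adjusted p = 0.434). With same-numbered libraries as pairs, Hba-a1 was lower in PRPS2 KO than in Eμ-Myc in 4 of 4 pairs, with the same fold change (limma adjusted p = 1, unadjusted p = 0.0447). The labels do not tie these numbers together, so the pairs rest on correlations in these same data.

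Hba-a2 repeated these values, with 134 in WT library 4 and means of 47.5 ± 58.1, 34.4 ± 25.2 and 14.7 ± 2.00 (SD, n = 4 each) in WT, Eμ-Myc and PRPS2 KO. Its log2 fold changes were -0.08, -0.93 and -1.01 in the same order of comparisons. Beta globin Hbb-bs, the partner chain, followed the same order of libraries at the top: 467 in WT library 4, then 251 and 133 in Eμ-Myc libraries 3 and 4. Elsewhere Hbb-bs lay between 39.1 and 83.1, and the ratio of Hba-a1 to Hbb-bs stayed between 0.268 and 0.358 in all 12 libraries. Alpha and beta globin RNA thus moved together within each library, whatever its genotype.

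Alas2, which makes the first precursor of haem in erythroid cells, lies at chrX:150547375-150570638 on the plus strand of GRCm38. GENCODE places the coding gene Apex2 and the microRNA gene Mir3620 over part of it on the opposite strand, and whether counting used strand is not given in the sources used here. Its scaled coverage was 5.23, 3.29, 2.78 and 25.9 in WT libraries 1 to 4. In Eμ-Myc it was 4.75, 1.94, 17.8 and 8.04, and in PRPS2 KO 2.72, 3.29, 4.56 and 4.75. The same 3 libraries as for the globins were highest, and all 3 groups overlapped. Group means were 9.31 ± 11.1 in WT, 8.14 ± 6.93 in Eμ-Myc and 3.83 ± 0.983 in PRPS2 KO (SD, n = 4 each). Log2 fold changes were 0.02 ± 0.77 (SE) in Eμ-Myc against WT (limma adjusted p = 0.982), -0.66 ± 0.56 in PRPS2 KO against Eμ-Myc (adjusted p = 1) and -0.63 ± 0.63 in PRPS2 KO against WT (adjusted p = 0.418). The last was 0.03 without WT library 4, and the first ran from -0.46 without Eμ-Myc library 3 to 0.69 without WT library 4, and was 1.52 with library quality weights (limma adjusted p = 0.0413). The second was -0.17 with Eμ-Myc library 3 left out, -1.14 with library 2 of that group left out, and -1.19 with the weights (limma adjusted p = 0.0233).

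Slc4a1, the band 3 anion exchanger that exports bicarbonate and anchors the membrane skeleton, lies at chr11:102348824-102366203 on the minus strand. Its scaled coverage was 0.996, 0.376, 0.297 and 1.37 in WT libraries 1 to 4. In Eμ-Myc it was 1.30, 0.462, 11.6 and 8.48. In PRPS2 KO it was 0.523, 1.75, 4.35 and 6.12. Libraries 3 and 4 of both transgenic groups were the 4 highest of the 12, while Eμ-Myc libraries 1 and 2 and PRPS2 KO library 1 lay within the WT range. Slc4a1 had the widest span within a group of the 8 genes, 25.1-fold between Eμ-Myc libraries 2 and 3. Means were 0.759 ± 0.511 in WT, 3.18 ± 2.52 in PRPS2 KO and 5.45 ± 5.44 in Eμ-Myc (SD, n = 4 each). The log2 fold change was 1.65 ± 0.78 (SE) in Eμ-Myc against WT (limma adjusted p = 0.101), 1.31 ± 0.61 in PRPS2 KO against WT (adjusted p = 0.112) and -0.34 ± 0.93 in PRPS2 KO against Eμ-Myc (adjusted p = 1). Without Eμ-Myc library 2 the first was 2.30 (limma adjusted p = 0.0223), and without PRPS2 KO library 1 the second was 1.82 (limma adjusted p = 0.0187). With library quality weights they were 3.18 (limma adjusted p = 0.0014) and 2.66 (adjusted p = 1.94e-05). WT values sat near the low-value filter of 1, with WT library 4 alone above it, and the 2 folds against WT were 2.00 and 1.68 with a pseudocount of 0.1 and 1.10 and 0.79 with 2, in place of 0.5.

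Ermap lies at chr4:119175457-119190011 on the minus strand. Its scaled coverage was 7.22, 1.51, 1.59 and 4.78 in WT libraries 1 to 4, 7.17, 3.05, 9.27 and 9.91 in Eμ-Myc, and 6.59, 5.25, 7.95 and 7.39 in PRPS2 KO. WT libraries 2 and 3 were the lowest of the 12, and WT library 1 lay among the transgenic libraries. Means were 3.77 ± 2.76, 7.35 ± 3.10 and 6.79 ± 1.17 in that order (SD, n = 4 each). The log2 fold change was 1.00 ± 0.51 (SE) in Eμ-Myc against WT (limma adjusted p = 0.121), 1.00 ± 0.46 in PRPS2 KO against WT (adjusted p = 0.112) and -0.01 ± 0.35 in PRPS2 KO against Eμ-Myc (adjusted p = 1). Without WT library 1 the first was 1.37 (limma adjusted p = 0.0386), and without WT library 2 or 3 it was 0.72 or 0.74 (adjusted p = 0.269 and 0.271). Weights gave 1.90 (limma adjusted p = 0.000728), and 1.63 (adjusted p = 0.000483) in PRPS2 KO against WT.

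Gata1, the factor without which erythroid precursors die before maturing, lies at chrX:7959260-7978071 on the minus strand. Its scaled coverage was 8.46, 3.20, 2.68 and 7.85 in WT libraries 1 to 4, 7.26, 4.80, 9.57 and 8.81 in Eμ-Myc, and 6.90, 5.25, 6.36 and 7.28 in PRPS2 KO. WT split into a higher pair, libraries 1 and 4, and a lower pair, and the transgenic libraries lay within or just above the WT range. Means were 5.55 ± 3.03, 7.61 ± 2.11 and 6.45 ± 0.886 (SD, n = 4 each). Log2 fold changes were 0.53 ± 0.38 (SE) in Eμ-Myc against WT (limma adjusted p = 0.255), -0.19 ± 0.24 in PRPS2 KO against Eμ-Myc (adjusted p = 1) and 0.34 ± 0.38 in PRPS2 KO against WT (adjusted p = 0.463). The first was 0.27 without WT library 3, 0.77 without WT library 1 and 1.23 with library quality weights (limma adjusted p = 0.00227). The second ran from -0.38 without Eμ-Myc library 2 to -0.07 without Eμ-Myc library 3. Across the alternatives the third ran from 0.08 to 0.86, the latter with library quality weights (limma adjusted p = 0.00773).

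Klf1, which activates adult beta globin and many other erythroid genes, lies at chr8:84901928-84905291 on the plus strand. Its scaled coverage was 10.8, 3.39, 1.59 and 5.80 in WT libraries 1 to 4, 9.21, 6.19, 12.3 and 11.7 in Eμ-Myc, and 7.21, 6.48, 12.2 and 11.5 in PRPS2 KO. Libraries 3 and 4 of both transgenic groups were the 4 highest, followed by WT library 1. Means were 5.39 ± 3.99, 9.83 ± 2.77 and 9.35 ± 2.92 (SD, n = 4 each). The log2 fold change was 1.03 ± 0.47 (SE) in Eμ-Myc against WT (limma adjusted p = 0.0906), 0.96 ± 0.51 in PRPS2 KO against WT (adjusted p = 0.152) and -0.07 ± 0.29 in PRPS2 KO against Eμ-Myc (adjusted p = 1). Without WT library 1 the first was 1.43 (limma adjusted p = 0.0151), without WT library 3 it was 0.62 (adjusted p = 0.199), and the second was 1.36 and 0.55 without these same libraries. Under the weights both were called, at 1.83 (limma adjusted p = 0.00134) and 1.74 (adjusted p = 0.000685).

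Epor, the receptor that keeps early erythroid progenitors alive, lies at chr9:21958897-21963506 on the minus strand. Its scaled coverage was 6.64, 3.86, 5.06 and 3.98 in WT libraries 1 to 4, 6.52, 5.54, 7.88 and 6.83 in Eμ-Myc, and 8.89, 6.38, 4.88 and 6.54 in PRPS2 KO. No library stood far from the rest, and the highest exceeded the lowest by at most 1.82-fold within a group. Means were 4.88 ± 1.29, 6.69 ± 0.963 and 6.67 ± 1.66 (SD, n = 4 each). The log2 fold change was 0.44 ± 0.20 (SE) in Eμ-Myc against WT (limma adjusted p = 0.0957), 0.41 ± 0.25 in PRPS2 KO against WT (adjusted p = 0.201) and -0.02 ± 0.21 in PRPS2 KO against Eμ-Myc (adjusted p = 1). Without WT library 1 the first was 0.58 (limma adjusted p = 0.0308), and without WT library 2 it was 0.34 (adjusted p = 0.216). With weights it was 0.63 (limma adjusted p = 0.00493).

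**Figure D1:**
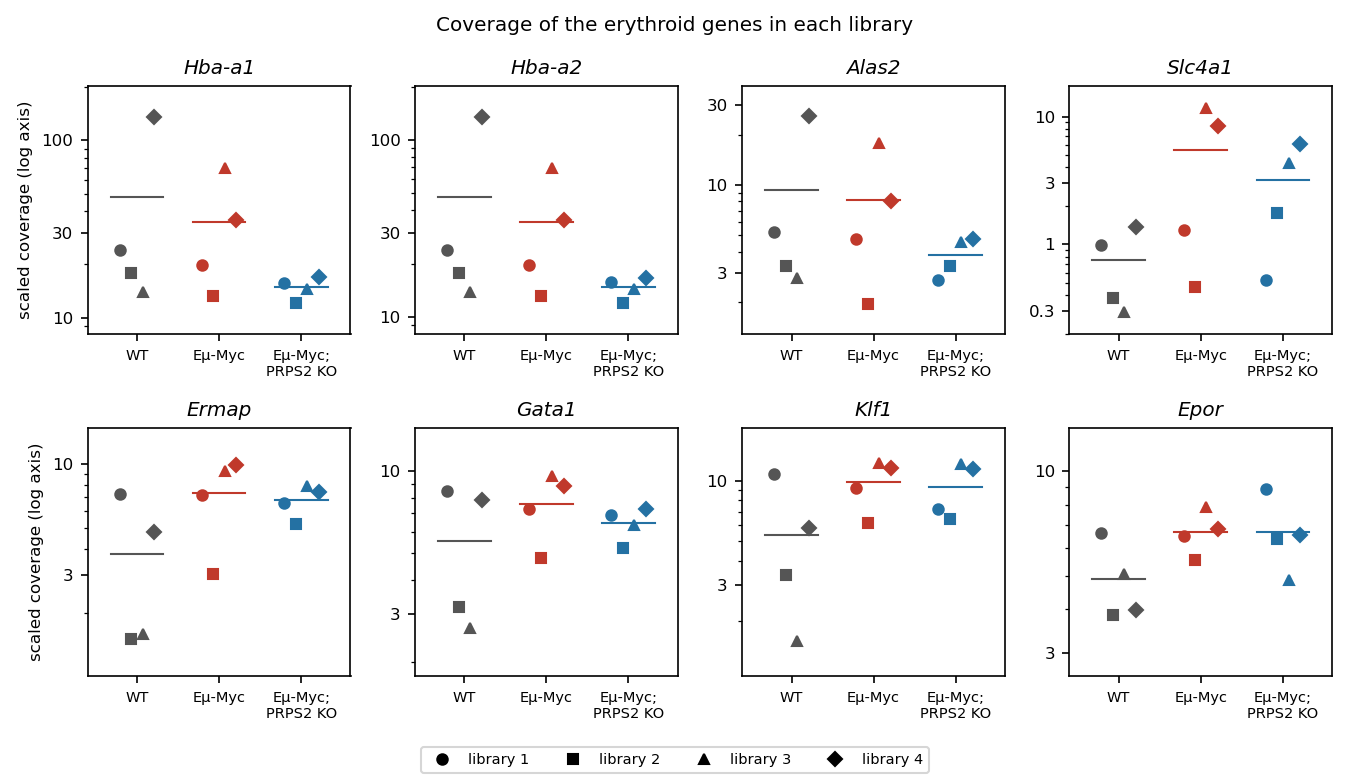
Scaled coverage (log axes) of the 8 erythroid genes in each library; points are libraries, shaped by replicate number, and lines are group means. Alpha globins and Alas2 peak in WT library 4 and Eμ-Myc library 3, while Slc4a1 and Klf1 are high in libraries 3 and 4 of both transgenic groups.

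Counted over the 8 genes, 0 passed the threshold of an adjusted p of 0.05 in Eμ-Myc against WT, where limma called 56.2% of all 12700 genes tested. None of the 8 had groups without overlap, as 52.3% of all genes did, and 0 had an unadjusted limma p under 0.05, beside 61.9%. Of their fold changes, 6 were above 0 and 2 below, the latter both alpha globin copies, with a median of 0.48. Over all genes tested, 5899 were above 0 and 6801 below, with a median of -0.07. Between PRPS2 KO and Eμ-Myc, 0 of 8 passed, where limma called 0.00799% of 12515 genes, a single gene. None of the 8 had groups without overlap, beside 1.59% of all genes, and 0 had an unadjusted p under 0.05, beside 0.967%. With same-numbered libraries as pairs, Hba-a1 and Hba-a2, which give 1 measurement, had unadjusted limma p of 0.0447 and 0.0445, both with an adjusted p of 1. That fit also called a single gene over all genes, and its share of unadjusted p under 0.05 is not reported here. The pairs were taken from correlations in these same data and not from the labels. All 8 fold changes were below 0, as were 7309 of 12515 over all genes, with a median of -0.26 beside -0.04. The 8 count the alpha globin copies as 2, though these give 1 measurement. The signs of Ermap and Epor there turned under median-of-ratios and total coverage scaling, at 0.02 and 0.01. Those of Slc4a1, Ermap, Klf1 and Epor turned in fits with 1 library left out. Between PRPS2 KO and WT, 0 of 8 passed, where limma called 31.4% of 12692 genes. None of the 8 had groups without overlap, beside 38.8% of all genes, and 0 had an unadjusted p under 0.05, beside 51.3%. There 5 fold changes were above 0 and 3 below, with a median of 0.38. Over all genes, 5823 were above 0 and 6869 below, with a median of -0.09. Both comparisons with WT share the WT libraries, so their values are given side by side only. With limma's library quality weights, 6, 3 and 4 of the 8 were called in the 3 comparisons, in the order given, while over all genes they called 9044 of 12700, 7231 of 12515 and 10656 of 12692. The genes called were Alas2, Slc4a1, Ermap, Gata1, Klf1 and Epor in Eμ-Myc against WT, Hba-a1, Hba-a2 and Alas2 in PRPS2 KO against Eμ-Myc, and Slc4a1, Ermap, Gata1 and Klf1 in PRPS2 KO against WT.

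**Figure D2:**
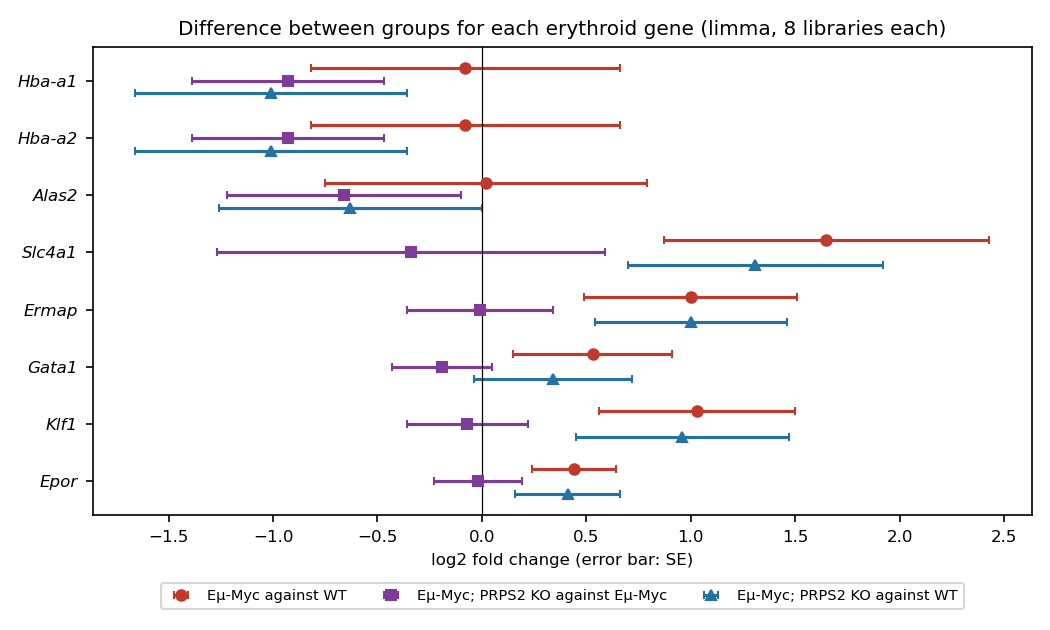
Log2 fold change of each erythroid gene in the 3 comparisons from limma (x axis; points are estimates, bars are ± 1 SE, 8 libraries each). Estimates against WT lie above 0 for Slc4a1, Ermap, Gata1, Klf1 and Epor, and no estimate in the 3 comparisons is past the threshold.

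Ratios within a library show which of the 8 genes moved together. Hba-a1 stood 3.19 to 6.81 times as high as Alas2 in all 12 libraries, although each gene spanned a far wider range on its own. Within PRPS2 KO that ratio ran from 3.19 to 5.81, while Hba-a1 spanned 1.39-fold and Alas2 1.75-fold. The joint rise was thus seen in the high WT and Eμ-Myc libraries and not within PRPS2 KO. The ratio of Hba-a1 to Klf1 was 2.23, 5.28, 8.75 and 23.3 in WT libraries 1 to 4. In Eμ-Myc it was 2.16, 2.13, 5.72 and 3.05, and in PRPS2 KO 2.19, 1.87, 1.19 and 1.47. Globin RNA was therefore high relative to Klf1 in WT library 4 and low relative to it in PRPS2 KO libraries 3 and 4. The ratio of Slc4a1 to Alas2 was 0.190, 0.114, 0.107 and 0.0526 in WT, 0.275, 0.238, 0.648 and 1.05 in Eμ-Myc, and 0.192, 0.531, 0.953 and 1.29 in PRPS2 KO. All WT libraries lay below all Eμ-Myc libraries in that ratio, and PRPS2 KO library 1 lay level with the highest WT library. Deposited coverage carries 1 decimal, and that of Slc4a1 was 1.2 in WT library 1 and 0.5 in Eμ-Myc library 2 and PRPS2 KO library 1. At such low values the order of WT library 1 and PRPS2 KO library 1 is within rounding, and Eμ-Myc library 2 lies close. How often other pairs of genes separate these groups was not tested. WT library 4, highest in globin and Alas2, had the lowest ratio of the 12. Klf1 stood between 0.593 and 1.92 times as high as Gata1, and between 1.00 and 2.25 times as high as Ermap, over the 12 libraries. These ratios were chosen after the values were seen and are given as descriptions, with no test.

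**Figure D3:**
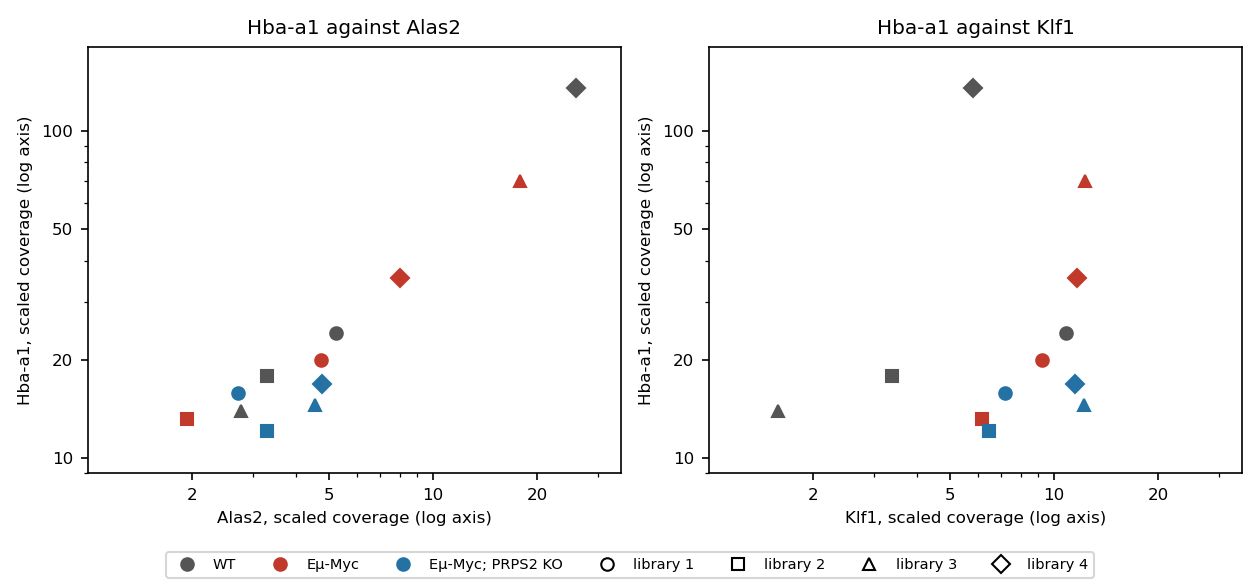
Scaled coverage of Hba-a1 (y, log axis) against that of Alas2 (left) and Klf1 (right, log axes) in the 12 libraries, coloured by genotype and shaped by replicate number. Points rise together on the left, where the ratio stays between 3.19 and 6.81, and scatter on the right, where it runs from 1.19 to 23.3.

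The likeness of other genes was measured over the 12 libraries, as the Pearson correlation of each gene's deviations from its genotype means with the mean standardised deviation of the 8 erythroid genes. That mean deviation was highest in WT library 4, at 1.13, and lowest in Eμ-Myc library 2, at -1.27. Among 10346 candidate genes, those whose scaled coverage averaged 5 or more, the 8 most alike were Snx4, a sorting nexin (r = 0.92, Spearman's rho = 0.94), Ces2g, a carboxylesterase (0.91 and 0.93), Car2, a carbonic anhydrase abundant in red cells (0.90 and 0.90), Aqp1, the red-cell water channel (0.90 and 0.87), Pklr, the pyruvate kinase of red cells and liver (0.88 and 0.92), Tfr2, a transferrin receptor (0.88 and 0.94), Dntt, the terminal transferase of lymphoid precursors (0.87 and 0.86), and Hbb-bs (0.87 and 0.85). With the 2 libraries farthest from the median left out, r ran from 0.85 for Hbb-bs to 0.93 for Aqp1. Dntt, for example, was 8.30, 4.05, 4.26 and 13.7 in WT libraries 1 to 4, 5.21, 5.26, 10.1 and 10.6 in Eμ-Myc, and 7.32, 4.32, 8.27 and 5.80 in PRPS2 KO. All points share libraries and scaling factors with the erythroid genes, so these correlations are descriptions with no test.

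The wider erythroid lists hold 58 further genes, of which 49 passed the low-value filter in Eμ-Myc against WT, and limma called 23 of these (46.9%, beside 56.2% of all genes), 14 higher and 9 lower. Over all genes, 28.3% were called higher and 27.9% lower. The comparison of PRPS2 KO with WT called 13 of 49 (26.5%, beside 31.4%), 8 higher and 5 lower, beside 19.3% and 12% over all genes. That count depended on single libraries: leaving 1 out gave 1 call (without WT library 2) to 24 (without PRPS2 KO library 1) in the lists with the 8 erythroid genes included, Slc4a1 being 1 of the 24, with 651 and 6816 calls over all genes, of which 93.4% and 49.5% were higher. With same-numbered libraries as pairs it was 6, with 1905 over all genes. That of PRPS2 KO with Eμ-Myc called 0 of 52, and 1 had an unadjusted limma p under 0.05. Counts for single lists, given next, also include the 8 erythroid genes where a list holds them, so they add up to 57 genes tested in each comparison with WT.

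Among globins, 0 of 6 tested were called in any comparison, with median fold changes of -0.08 in Eμ-Myc against WT and -1.01 in PRPS2 KO against WT. Hbb-b1 and Hbb-bs, and Hbb-b2 and Hbb-bt, carry the same or nearly the same values, so these 6 rows hold fewer separate measurements. Of haem synthesis and mitochondrial iron import, 5 of 12 genes were called in Eμ-Myc against WT, 4 higher and 1 lower, and enzymes used by every cell that makes haem were among them. Alad, which joins 2 molecules of aminolevulinic acid, was 22.5, 27.3, 24.1 and 21.9 in WT libraries 1 to 4 and 37.6, 52.2, 42.7 and 45.0 in Eμ-Myc, with no overlap. It rose by 0.87 ± 0.13 on the log2 scale (limma adjusted p = 0.000443), Cpox by 0.71 ± 0.16 (adjusted p = 0.0052) and Urod by 0.48 ± 0.12 (adjusted p = 0.00823). In PRPS2 KO against WT the count was again 5 of 12, 4 higher and 1 lower. There Fech, which inserts the iron in the last step of haem synthesis, rose by 0.43 ± 0.12 (limma adjusted p = 0.0337) and Cpox by 0.73 ± 0.21 (adjusted p = 0.0356). Slc25a38, a mitochondrial glycine carrier, changed by -0.50 ± 0.14 (limma adjusted p = 0.0361). Calls for Fech, Cpox and Slc25a38 in that comparison were lost without any 1 WT library and without PRPS2 KO library 3 or 4. They were also lost with same-numbered libraries as pairs. Across these fits, the limma adjusted p ran up to 0.0986 for Fech, 0.0984 for Cpox and 0.0988 for Slc25a38. Alas2, the erythroid isoform of the first step, was not among the genes called, as given above.

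Of the red-cell membrane and skeleton list, 6 of 13 tested were called in Eμ-Myc against WT, 5 higher and 1 lower. Icam4, a red-cell adhesion protein, rose by 1.40 ± 0.30 on the log2 scale (limma adjusted p = 0.00398), from 1.16, 1.41, 0.793 and 2.39 in WT libraries 1 to 4 to 2.79, 4.34, 4.89 and 6.28 in Eμ-Myc, with no overlap. Dmtn, the skeleton protein dematin, rose by 1.56 ± 0.46 (limma adjusted p = 0.0171), and Rhd, the Rh blood group antigen, by 1.81 ± 0.53 (limma adjusted p = 0.0176). For these 2 the groups overlapped at the low end of Eμ-Myc, since Dmtn was 6.33, 4.15, 17.9 and 15.5 there and WT library 1 reached 4.56. Epb41, the skeleton protein 4.1R, which many cell types use, was lower, at -0.61 ± 0.14 (limma adjusted p = 0.00446). The call for Rhd was lost without Eμ-Myc library 3 or 4, at adjusted p up to 0.0526. In PRPS2 KO against WT, 1 of 13 was called: Epb41, at -0.49 ± 0.15 (limma adjusted p = 0.0446), lost in 9 of 18 alternatives, at adjusted p up to 0.124.

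Of 9 erythroid transcription factor genes, 4 were called in Eμ-Myc against WT, 2 in each direction. Zfpm1, the GATA1 cofactor FOG1, rose by 1.38 ± 0.13 (limma adjusted p = 3.58e-05), from 25.3, 26.3, 25.9 and 35.7 in WT to 68.2, 72.9, 75.1 and 80.2 in Eμ-Myc. Gfi1b, a repressor needed for red cells and platelets, rose by 1.22 ± 0.31 (limma adjusted p = 0.00873). Lmo2, a bridging factor of the TAL1 complex that B cells also express, was lower, at -1.38 ± 0.20 (limma adjusted p = 0.000389), from 582, 736, 711 and 439 in WT to 258, 292, 195 and 197 in Eμ-Myc. Cbfa2t3, a corepressor, changed by -0.48 ± 0.18 (limma adjusted p = 0.0429), a call lost in 8 of 18 alternatives, at adjusted p up to 0.152. In PRPS2 KO against WT, 3 of 9 were called: Zfpm1 at 1.35 ± 0.26 (limma adjusted p = 0.0145), Lmo2 at -1.94 ± 0.49 (adjusted p = 0.0286) and Gfi1b at 1.14 ± 0.34 (adjusted p = 0.0401). That call was lost without WT library 2 or 3 for Zfpm1, at limma adjusted p up to 0.0523. It was lost in 6 of 18 alternatives for Lmo2 and in 8 of 18 for Gfi1b. Lmo2 was 338, 262, 84.1 and 81.0 in PRPS2 KO libraries 1 to 4. Its fold change against WT ran from -3.01 to -1.63 over the alternatives.

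Of 7 genes of erythropoietin and stem cell factor signalling, 4 were called in Eμ-Myc against WT, 1 higher and 3 lower. Tfrc, the transferrin receptor, which dividing cells use as well as erythroblasts, rose by 1.88 ± 0.12 (limma adjusted p = 6.35e-06), from 62.0, 57.2, 61.0 and 68.2 in WT to 230, 184, 258 and 257 in Eμ-Myc. Its values in PRPS2 KO were 145, 197, 292 and 309, and the fold change against WT was 1.85 ± 0.24 (limma adjusted p = 0.00909), called in all 18 alternatives. Jak2, the kinase bound to the erythropoietin receptor, changed by -0.87 ± 0.14 (limma adjusted p = 0.000806), Kit, the stem cell factor receptor, by -0.75 ± 0.18 (adjusted p = 0.0073) and Stat5b by -0.48 ± 0.13 (adjusted p = 0.0108). With all 12 libraries in 1 fit, the calls for Jak2 and Kit were lost, at adjusted p of 0.0947 and 0.236. Tfrc alone of the 7 was called in PRPS2 KO against WT. Of 10 late maturation genes tested, 4 were called in Eμ-Myc against WT: Xpo7, a nuclear exportin, at 0.66 ± 0.15 (limma adjusted p = 0.00564), and Cldn13, a claudin, at 1.77 ± 0.62 (adjusted p = 0.0364) were higher, while Bnip3l, which clears mitochondria, at -0.56 ± 0.12 (adjusted p = 0.00316) and Bpgm, which makes bisphosphoglycerate, at -0.43 ± 0.13 (adjusted p = 0.0212) were lower. The call for Cldn13 was lost in 6 leave-outs of a library, at adjusted p up to 0.0971. In PRPS2 KO against WT, Bpgm at -0.75 ± 0.15 (limma adjusted p = 0.0149), Xpo7 at 0.89 ± 0.19 (adjusted p = 0.0195) and Bnip3l at -0.66 ± 0.19 (adjusted p = 0.0371) were called, and each lost its call when 1 of some libraries was left out, Bpgm in 2 of 18 alternatives, Xpo7 in 5 and Bnip3l in 6.

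**Figure D4:**
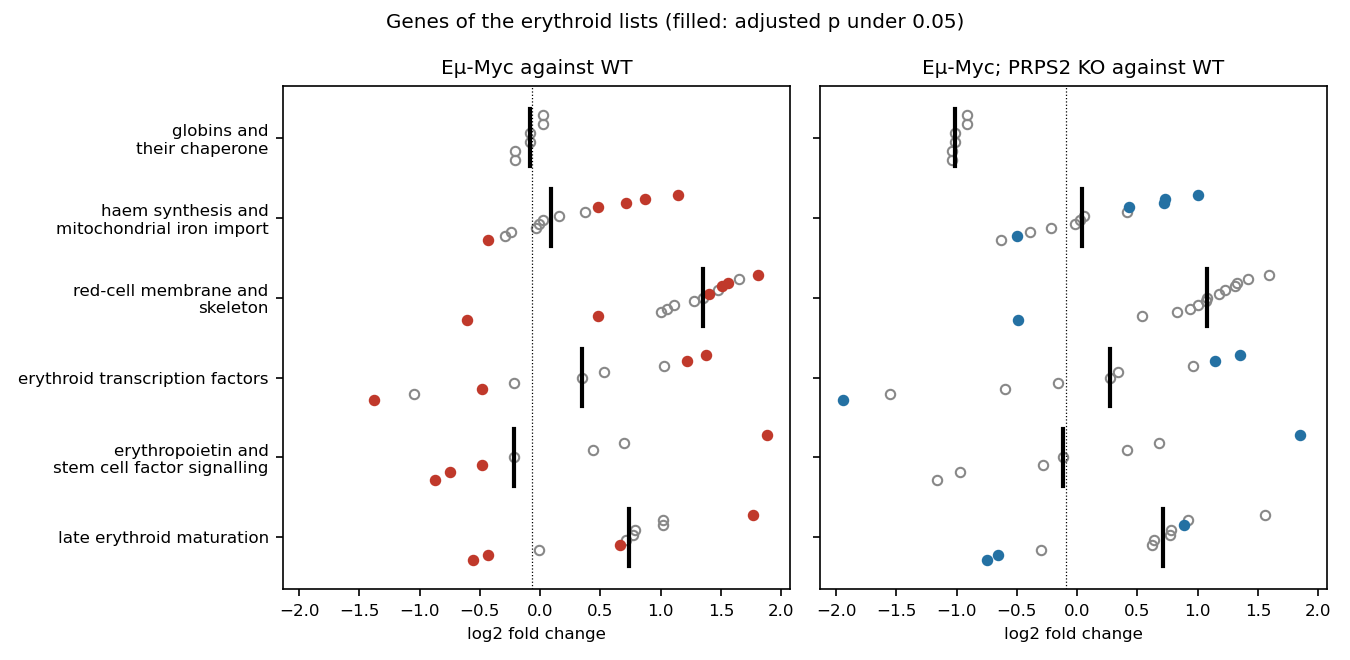
Log2 fold change (x axis) of each tested gene in the 6 erythroid lists in both comparisons with WT; filled points passed an adjusted p of 0.05, black bars are list medians, and dotted lines are medians over all genes tested. No globin is filled in either comparison, and called genes lie on both sides of 0 in the haem, membrane, transcription factor, signalling and late lists of Eμ-Myc against WT.

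Markers of other splenic cells moved across the same libraries, and no marker of these lists was at 0 in all 4 libraries of a group. In Eμ-Myc against WT, limma called 8 of 8 T-cell and 7 of 7 NK-cell markers lower, beside 27.9% of all genes, with summed T-cell coverage of 425 to 2465 in WT and 85.3 to 125 in Eμ-Myc. Megakaryocyte and platelet markers, which share Gata1 with red cells, were called lower in 2 of 8 tested there (25.0%, beside the same 27.9%) and in 5 of 9 (55.6%, beside 12% of all genes) in PRPS2 KO against WT. None of them had groups without overlap in either comparison, beside 52.3% and 38.8% of all genes. Their median log2 fold change in PRPS2 KO against WT was -1.90. T-cell and NK-cell markers had lower medians there, -3.26 and -2.49, with 0 of 8 and 0 of 7 called. Calls over all genes in PRPS2 KO against WT depended on single libraries: without WT library 2, limma called 651, of which 93.4% were higher. Marker counts are not given with a library left out. WT library 4, highest in globin, also had the highest T-cell sum, 2465, and the highest NK-cell sum, 1233. Its sums were the lowest of WT for B cells, at 6661, for red pulp and island macrophages, at 1356, and for megakaryocytes and platelets, at 99.7. Gata1 is used by megakaryocytes, mast cells and eosinophils too, and WT libraries 1 and 4, the high pair for Gata1, had mast cell and basophil sums of 327 and 181 against 28.9 and 46.3 in WT libraries 2 and 3. The same split stood in WT for neutrophils, at 34105 and 17790 against 6771 and 7090, for T cells, at 837 and 2465 against 425 and 573, and for NK cells, at 902 and 1233 against 306 and 365. Megakaryocyte and platelet sums ran the other way in WT, at 295 and 99.7 in libraries 1 and 4 and at 435 and 438 in libraries 2 and 3. Eosinophil sums were 97.9, 71.6, 94.3 and 48.7 in WT libraries 1 to 4, and genes of that list went opposite ways: Prg2, a granule protein, was 33.5, 7.81, 6.05 and 13.5, higher in the Gata1 pair, while the receptor gene Il5ra was 13.9, 28.8, 30.2 and 16.0. In PRPS2 KO libraries 3 and 4 mast cell and basophil sums were 5.83 and 3.27, and Fcer1a was at 0, while Gata1 was 6.36 and 7.28 and Klf1 12.2 and 11.5. Neutrophil sums were 18794 and 13085 in PRPS2 KO libraries 1 and 2 against 3033 and 1063 in libraries 3 and 4, and macrophage sums were 3861, 2419, 874 and 1123 in libraries 1 to 4. Within PRPS2 KO, Slc4a1, Klf1, Ermap and Alas2 were highest in libraries 3 and 4, which had the lowest sums of that group for every marker list, B cells included. Gata1 and the alpha globins did not split this way. Epor was highest in PRPS2 KO library 1, at 8.89, and lowest in library 3, at 4.88. Beyond these values, the part of other cells in the results was not tested.

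**Figure D5:**
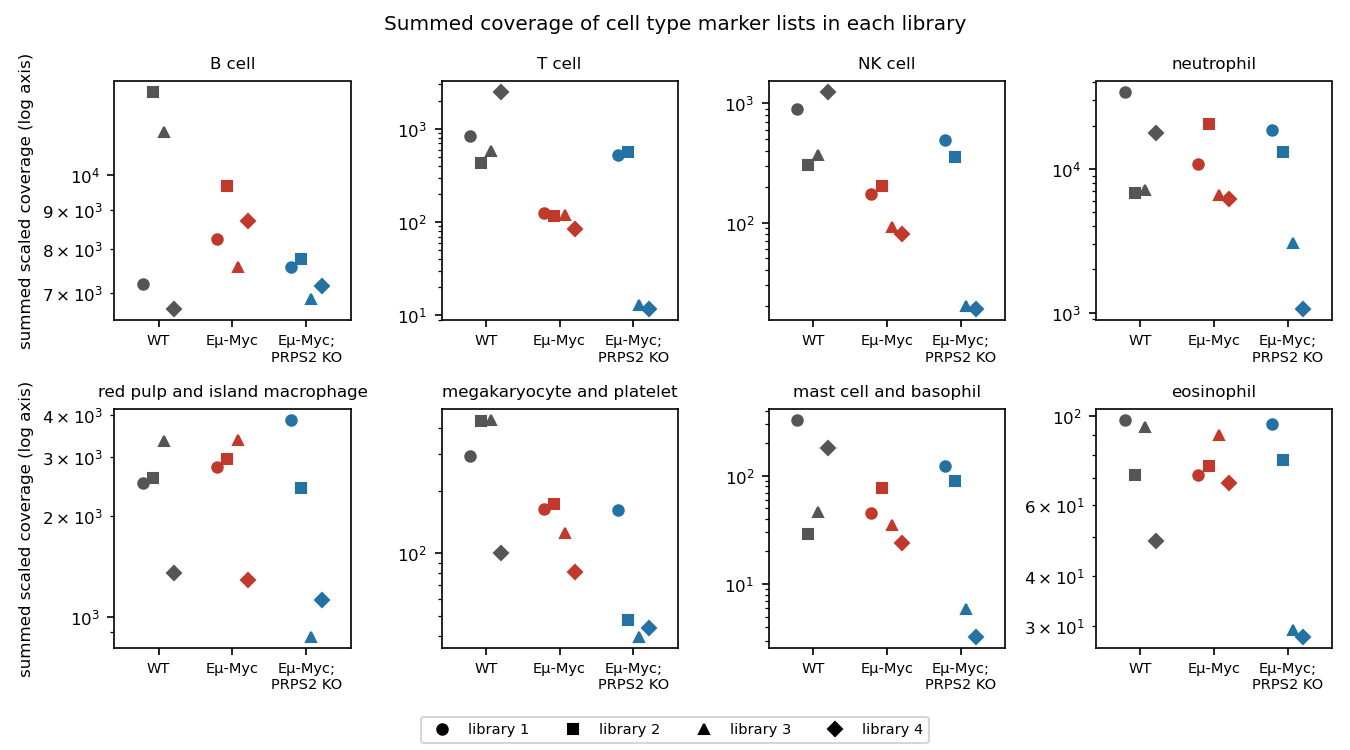
Summed scaled coverage (log axes) of 8 cell type marker lists in each library, with points shaped by replicate number. T-cell sums in WT, 425 to 2465, all lie above those of Eμ-Myc, and PRPS2 KO libraries 3 and 4 lie below libraries 1 and 2 in every panel.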

How the data were processed

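RNA-seq of 12 libraries was used, 4 each of WT, Eμ-Myc and Eμ-Myc; PRPS2 KO, grouped by the genotype in the labels. Per the labels, RNA was polyadenylated and libraries were directional. The authors deposited 1 table per library with the coverage of 24982 gene symbols, a signal with 1 decimal that is not whole for 91.6% of values above 0. The submitters' processing notes name the build mm10, DESeq and R 4.3.3, and the aligner, counting rule and annotation are not given in the sources used here. Since the values are not counts, no count model was used. The members and gene lists were chosen with earlier results of these data known.

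Coverage was divided by a factor per library from unweighted trimmed means of log ratios (trimming 30% of the ratios and 5% of the means from either tail) over the 10992 genes with coverage of at least 1 in every library, a gene set chosen after the values were seen. The linear models of limma 3.58.1 in R 4.3.3 took log2(scaled coverage + 0.5) from the 8 libraries compared, its empirical Bayes step used the trend and robust options, and a gene was tested where 4 or more of the libraries reached a scaled coverage of 1. Tests were two-sided, with Benjamini-Hochberg adjustment over all genes and a threshold of 0.05, and the steps were tested on simulated data. Figures and sequence matches used Python 3.11.15, numpy 2.4.6, pandas 2.3.3 and matplotlib 3.10.9. Gene positions are from GENCODE on GRCm38 and promoters from RefSeq.

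Named genes are the members, up to 4 called genes with the smallest adjusted p in each of 6 erythroid lists (globins, haem synthesis, red-cell membrane, transcription factors, erythropoietin and stem cell factor signalling, late maturation), and the 8 genes most like the members; single values of some genes are not reported here. Marker lists covered B cells, T cells, NK cells, neutrophils, macrophages, megakaryocytes and platelets, mast cells and basophils, and eosinophils. Alternatives were 3 other scalings, other filters and pseudocounts, all 12 libraries in 1 fit, a replicate block, library quality weights and leaving out each library. Same-numbered Eμ-Myc and PRPS2 KO libraries deviated together (r = 0.64, 0.18, 0.24 and 0.60 over 12938 genes), all above 0.1, which counts as pairing from the data, since the labels tie no number to a litter or day. Values are from the fit without the block unless pairs are named.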

Additional observations from a re-analysis of the deposited data

Results flagged for a closer look

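A gene in the 4 libraries of a genotype was checked in 87 cases, on scaled coverage and not on its log2. In 7, a library's gap to the nearest other library took up more of the range than Dixon's 95% limit. Chance gives about 1 in 20 where values follow a normal distribution, which was not tested here. WT library 4 stood alone for the alpha globins and Alas2: Hba-a1 was 135 there against 13.9 to 24.1 (gap over range 0.916), Hba-a2 134 against 13.8 to 23.9 (0.916), and Alas2 25.9 against 2.78 to 5.23 (0.894). Since the alpha globin copies share their values, these are fewer than 3 separate events. Zfpm1 was also highest in WT library 4, at 35.7 against 25.3 to 26.3 (0.901). WT library 1 stood alone for Rhd, at 4.56 against 0.496 to 1.14 (0.842), and for Cldn13, at 4.98 against 0.565 to 1.14 (0.870). Eμ-Myc library 1 was high for Jak2, at 107 against 73.9 to 79.2 (0.840).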

How the results depend on the processing

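No erythroid gene tested was called under the scalings, filters, pseudocounts, the fit of all 12 libraries or the replicate block. With the filter of 5, Slc4a1 was not tested in any comparison, nor Alas2 in either comparison of PRPS2 KO. Slc4a1 also fell under the filter of 1 without WT library 4 in both comparisons with WT, without Eμ-Myc library 1, 3 or 4, and without PRPS2 KO library 2, 3 or 4. Library quality weights called 6 of the 8 in Eμ-Myc against WT, 3 in PRPS2 KO against Eμ-Myc and 4 in PRPS2 KO against WT, and in the wider lists, the 8 included, 49 of 57, 24 of 60 and 43 of 57 genes in place of 23, 0 and 13. Over all genes, weights called 9044 in place of 7135 in Eμ-Myc against WT, 7231 in place of 1 in PRPS2 KO against Eμ-Myc, and 10656 in place of 3981 in PRPS2 KO against WT. In this last comparison the fit of all 12 libraries called 6158 genes. With the replicate block it called 1905 genes and 6 of the wider lists. The block changed no call of the 8 erythroid genes. Same-numbered libraries correlated at 0.22, -0.10, 0.25 and 0.13 between Eμ-Myc and WT and at 0.39, -0.41, 0.13 and -0.06 between PRPS2 KO and WT, so there they share only a number.

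Leaving out 1 library gave 0 to 3 calls among the 7 or 8 tested in Eμ-Myc against WT, with 5882 to 7028 calls over all genes and 18 to 33 in the wider lists, and 0 to 1 in PRPS2 KO against WT, where wider-list calls ran from 1 (without WT library 2) to 24 (without PRPS2 KO library 1) and calls over all genes from 651 to 6816. Fold changes that turned sign this way ran, in Eμ-Myc against WT, from -0.50 to 0.64 for Hba-a1, -0.51 to 0.64 for Hba-a2 and -0.46 to 0.69 for Alas2. In PRPS2 KO against Eμ-Myc they ran from -0.99 to 0.23 for Slc4a1, -0.35 to 0.17 for Ermap, -0.27 to 0.07 for Klf1 and -0.16 to 0.11 for Epor. Alas2 in PRPS2 KO against WT ran from -0.97 to 0.03.

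Other signs turned in Eμ-Myc against WT for Alas2 under total coverage scaling (-0.08) and for Hba-a1 and Hba-a2 under weights (1.32 each, limma adjusted p 0.0586 and 0.0588). In PRPS2 KO against Eμ-Myc they turned for Ermap (0.02) and Epor (0.01) under median-of-ratios and total coverage scaling alike, for Ermap with a pseudocount of 0.1 (0, rounded) and for Klf1 under weights (0.02). Under weights, Alas2 was 0.18 in PRPS2 KO against WT. The cause was not tested. Total coverage scaling moved the median of all genes by -0.11 in Eμ-Myc against WT and left 42.0% of calls higher, against 50.3%. Of single-gene results, 853 of the alternatives' values kept direction and side of the threshold, 84 lost the call, 18 gained it and 36 turned sign. Depth is unknown, so no limit from it is given.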

Other observations

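Among the wider erythroid genes, 2 more drew attention after their values were seen. Car1, a carbonic anhydrase of erythroid progenitors, was 231, 55.6, 41.5 and 159 in WT libraries 1 to 4, 209, 160.0, 195 and 224 in Eμ-Myc, and 194, 132, 173 and 165 in PRPS2 KO. Its WT libraries split into the same pairs as those of Gata1, and the transgenic libraries lay near the WT pair that was high. Hbb-bh1, an embryonic beta-like globin, ran against the adult globins in WT, at 0.498, 2.35, 2.97 and 0.911, and was 0.0931, 0.277, 0.0997 and 0.110 in Eμ-Myc and 0, 0.617, 0.424 and 0.211 in PRPS2 KO. All 4 WT libraries lay above all 4 Eμ-Myc libraries, and 52.3% of all genes tested in that comparison had groups without overlap. Deposited coverage carries 1 decimal, so the Eμ-Myc levels lie within a few of its smallest steps above 0. Hbb-bh1 did not pass the low-value filter and was not tested.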
